A study of Mus musculus with 18 samples.

Results

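The 10 genes described here belong to the intermediate filament network and to the classic reactive astrocyte response, and were followed in cultured mouse cortical astrocytes: Gfap, Vim, Nes, Synm, Lcn2, Serpina3n, C3, Cd44, Stat3 and S100b. They were chosen by name as genes of these groups, with earlier results of these data known, and all 10 were among the 24495 genes tested out of 51912 in the count table. Translating ribosome affinity purification (TRAP) was used, in which GFP antibodies capture ribosomes whose RPL10A subunit carries EGFP. The captured mRNA is the IP fraction. RNA of the lysate, cleared by centrifugation and sampled before the capture, is the input fraction. The tag is driven by the Aldh1l1 promoter, which is active in astrocytes, and every library carried it. The donor pups came from hemizygous Aldh1l1-EGFP/Rpl10a mice (line JD130Htz on a B6;FVB background) bred to C57BL/6J. Cortices of male and female pups of postnatal day 0 were pooled in equal number, cultured for 14 days, replated on 100 mm dishes for 6 days and kept without serum for 24 h before the exposure. Dishes then received serum-free medium with 50 mM ethanol, or the same medium without ethanol (control), for 24 h in sealed chambers. IP libraries came from 6 control and 6 ethanol dishes (replicates 1 to 6). Input libraries, from 5% of the lysate, came from 3 of these control and 3 of these ethanol dishes (replicates 4 to 6), so the input and IP libraries of a dish share cells, and a dish is not an animal. In bulk RNA, fewer cells of a type and less RNA per cell cannot be told apart.

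Intermediate filaments are ropes of coiled proteins that give a cell its mechanical strength. Astrocytes build them from GFAP and vimentin, with nestin in immature or activated cells and synemin as a linker to the cell cortex. After injury or infection astrocytes turn reactive: they raise GFAP and secrete proteins such as complement C3, lipocalin 2 and serine protease inhibitors, in part through cytokine receptors that signal to the transcription factor STAT3. Expression is given as CPM, the read pairs of a gene relative to a library size scaled by TMM, and CPM per kb divides it by the summed length of a gene's exons, which allows levels of different genes to be compared. Differences are log2 fold changes with their SE, tested with edgeR's quasi-likelihood test, and adjusted p-values are Benjamini-Hochberg values over all 24495 genes. Positions follow GENCODE M21 on GRCm38.

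Libraries held 74239854 to 132810705 read pairs counted on genes, and the 10 genes took 1.52% to 1.62% of the CPM in input and 2.12% to 2.35% in IP libraries. The fewest read pairs behind any value were those of S100b, 176 to 399 per library, while the next lowest gene, Synm, had 4827 to 11902. Of 12 astrocyte markers, 11 were at or above 1 CPM in each group, with Ntsr2 below it. Of the 12, 11 were higher in IP than in input (background: 25.2% of all genes tested), including Aldh1l1 at 383 ± 9.72 CPM in IP control (SD, n = 6) and 189 ± 3.76 CPM in input control (SD, n = 3). S100b, widely used as an astrocyte marker, was the exception among the genes followed here and lay below 5 CPM in all libraries. No library was a copy of another of its group: even IP control replicates 5 and 6, the most alike, gave a chi-square of 3.87 per degree of freedom.

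IP vs. input (18 libraries, treatment in the model) differed for all 10 genes (background: 51% of all genes tested). In IP 9 were higher (background 25.2%) and S100b was lower (background 25.8%), and in all 10 the IP and input libraries did not overlap (background 25%). Of the 9 genes averaging 5 CPM or more, all 9 differed, against 78.6% of all genes at that level, so the count itself is close to its background. The median log2 difference was 0.58 over the 10 genes and -0.03 over all genes tested. Ethanol changed 4 of 10 genes in IP (background 21.4%): Synm, C3 and Stat3 rose (background 11.9%) and Nes fell (background 9.48%). In input, ethanol also changed 4 of 10 (background 15%), with Synm and Stat3 up (background 7.21%) and Nes and Gfap down (background 7.78%). Among all genes averaging 5 CPM or more the background was higher, 40.2% in IP and 29.8% in input, so that 4 of 9 in IP is near the share of all such genes. Control and ethanol libraries did not overlap for 3 genes in IP (Nes, Synm and Stat3; background 9.96%) and for 4 in input (Nes, Synm, Cd44 and Stat3; background 27.1%). The median log2 change of the 10 genes with ethanol was 0.02 in IP and -0.00 in input, beside 0.01 and -0.00 over all genes tested.

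**Figure D1:**
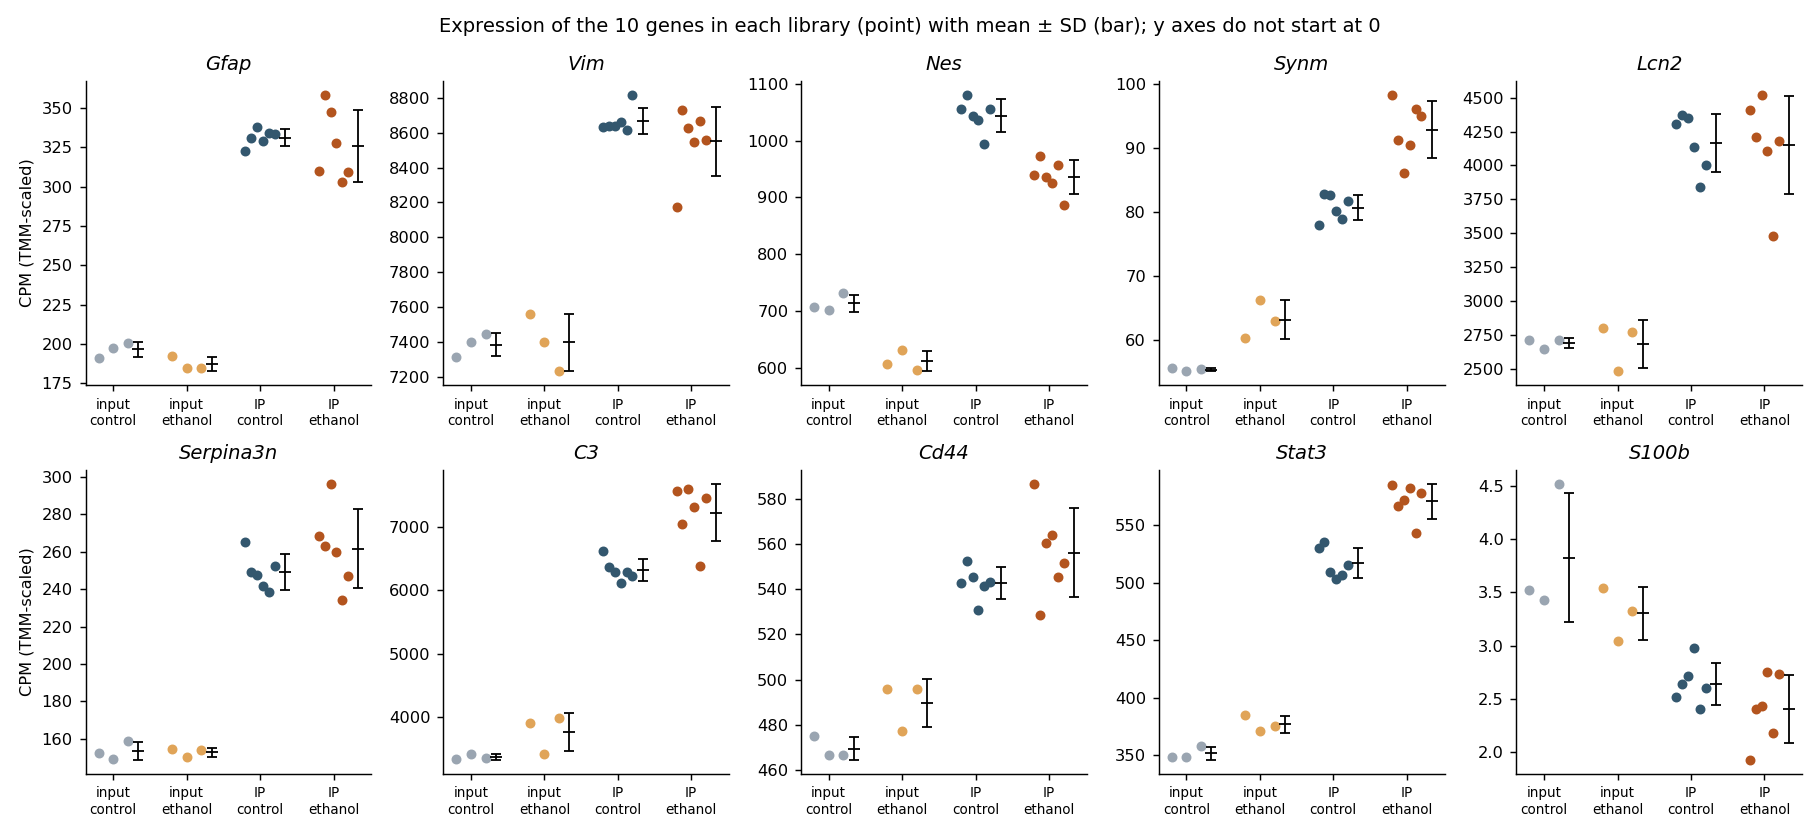
CPM of each of the 10 genes in input control (n = 3), input ethanol (n = 3), IP control (n = 6) and IP ethanol (n = 6) libraries, one point per library, with the mean and SD beside each group. Each y axis has its own range and does not start at 0. IP libraries lie above input libraries in 9 panels and below them for S100b, while the ethanol shifts within a fraction are small beside that gap.

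Per length, the order of the levels was Vim, Lcn2, C3, Nes, Serpina3n, Cd44, Gfap, Stat3, Synm and S100b in each of the 4 groups. In IP control Vim stood at 1827 ± 15.9 CPM per kb (SD, n = 6), Lcn2 at 1589 ± 81.1, C3 at 1228 ± 32.7, Nes at 162.7 ± 4.52 and Serpina3n at 121 ± 4.55. The lower end held Cd44 at 80.1 ± 1.04, Gfap at 78.5 ± 1.26, Stat3 at 54.3 ± 1.39, Synm at 10.2 ± 0.254 and S100b at 1.78 ± 0.133 CPM per kb. In input control Vim was at 1557 ± 13.9 CPM per kb (SD, n = 3), Lcn2 at 1026 ± 14.6, C3 at 655 ± 9.18 and Gfap at 46.6 ± 1.13, with no overlap between libraries, so Vim was above Lcn2 and C3 and all 3 were far above Gfap in both control groups. Neighbours in this order overlapped between libraries for Cd44 and Gfap in IP control, for Serpina3n and Cd44 in input ethanol, and for Vim and Lcn2, Lcn2 and C3, Nes and Serpina3n, and Cd44 and Gfap in IP ethanol. The order depends on the length used: divided by the longest transcript in place of the summed exons, Lcn2 (3033 CPM per kb) was above Vim (2962) and Gfap (125) above Serpina3n (121) in IP control.

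**Figure D2:**
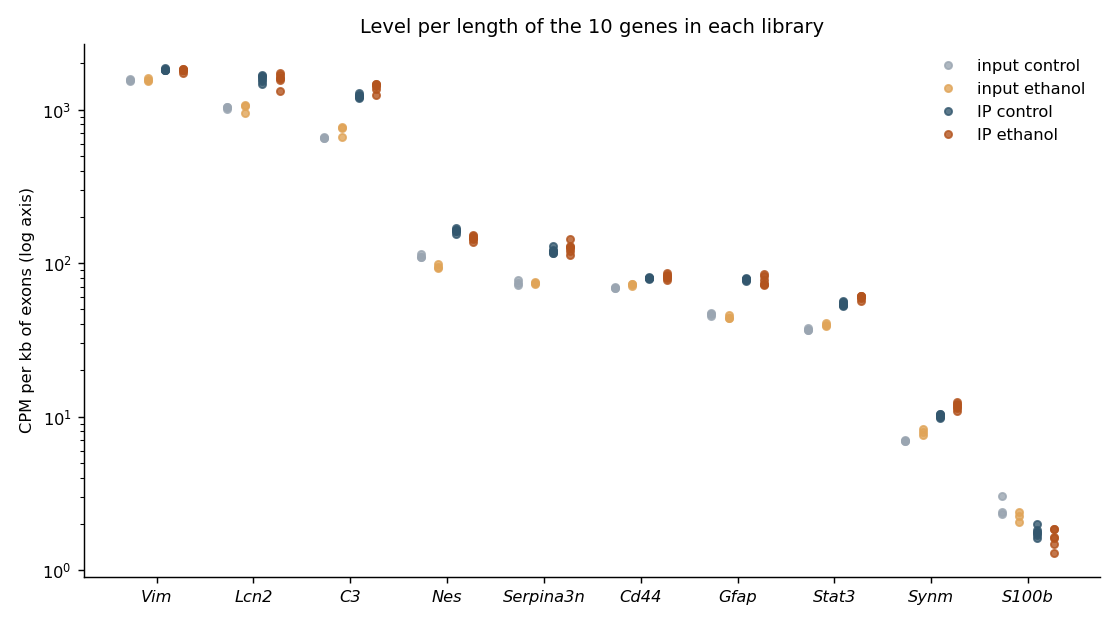
CPM per kb of exons on a log axis, one point per library, coloured by group and ordered by the mean in IP control. Vim, Lcn2 and C3 are the highest genes in all 4 groups and S100b the lowest.

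Gfap (ENSMUSG00000020932; minus strand, chr11:102887336-102900912) encodes the astrocyte filament protein used most often to mark reactivity. Its CPM was 191, 198 and 201 in input control and 192, 185 and 185 in input ethanol replicates 4, 5 and 6. In IP it ranged from 322 to 338 in control (median 332) and from 303 to 358 in ethanol libraries (median 319), so the ethanol libraries spread around the control range on both sides. The IP fraction exceeded input by 0.78 ± 0.03 log2 (SE; adjusted p = 1.32e-20). Ethanol did not move Gfap past the threshold in IP, at -0.02 ± 0.03 log2 (adjusted p = 0.816; 95% interval -0.08 to 0.05). In input it was lower by a small amount, -0.07 ± 0.02 log2 or -5.02% (adjusted p = 0.0129). Input control replicate 4 overlapped the ethanol libraries, and the call was lost when input control replicate 5 or 6 or input ethanol replicate 5 or 6 was left out (adjusted p = 0.0699, 0.139, 0.0890 and 0.0587). With IP replicates 4 to 6 only, the dishes that also have input libraries, Gfap was lower in IP as well, at -0.08 log2 (adjusted p = 0.0377), while with IP replicates 1 to 3 only it was at 0.04 log2 (adjusted p = 0.553).

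Vim (ENSMUSG00000026728; plus strand, chr2:13573927-13582826) encodes vimentin, the main partner of GFAP in astrocyte filaments. Its CPM was 7314, 7398 and 7444 in input control and 7563, 7398 and 7233 in input ethanol. Across IP libraries it ranged from 8615 to 8817 in control (median 8638) and from 8172 to 8728 in ethanol libraries (median 8593). The IP libraries lay above all input libraries, by 0.22 ± 0.02 log2 (adjusted p = 7.88e-20), one of the smallest gaps of the 10 genes. The ethanol estimate was -0.01 ± 0.02 log2 in the IP fraction (adjusted p = 0.761). In the input fraction it was -0.00 ± 0.02 log2 (adjusted p = 0.985). The 95% intervals were -3.64% to 2.03% in IP and -2.80% to 2.65% in input, and changes within them are not excluded. The intervals rest on dispersions estimated partly across genes, so a change beyond them is not excluded either. In IP, control replicate 6 (8817 CPM) and ethanol replicate 1 (8172 CPM) stood apart from the other libraries of their groups. Vim is also made by fibroblasts, mural cells and microglia, so its level does not by itself name a cell type.

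Nes (ENSMUSG00000004891; plus strand, chr3:87971078-87980451) encodes nestin, a filament protein of neural progenitors and immature astrocytes. It was the gene of this set that fell with ethanol in both fractions. In input its CPM was 708, 702 and 731 in control and 607, 632 and 597 in ethanol libraries, with no overlap. The fall in input was -0.23 ± 0.02 log2 or -14.5% (adjusted p = 8.25e-22). In IP it ranged from 993 to 1080 in control (median 1049) and from 886 to 973 in ethanol libraries (median 938), again with no overlap, and the difference was -0.15 ± 0.02 log2 or -9.85% (adjusted p = 1.02e-06). IP exceeded input by 0.58 ± 0.02 log2 (adjusted p = 1.11e-38). The 12 markers of dividing cells moved with Nes: all 12 were lower with ethanol in both fractions (background 9.48% in IP and 7.78% in input). Their summed level was 107 to 110 CPM in input control and 74.6 to 83.3 in input ethanol. In IP it was 96.5 to 110 in control and 77.9 to 86.5 in ethanol libraries. The part of dividing cells in the fall of Nes was not tested.

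Synm (ENSMUSG00000030554; minus strand, chr7:67730160-67759742) encodes synemin, which joins vimentin filaments to other structures of the cell. It went the opposite way to Nes. Its CPM was 55.5, 55.0 and 55.4 in input control and 60.2, 66.3 and 62.8 in input ethanol. The IP range was 77.9 to 82.8 in control (median 81.0) and 86.1 to 98.4 in ethanol libraries (median 93.1). Groups overlapped in neither fraction. Ethanol raised it by 0.19 ± 0.03 log2 in input (13.8%; adjusted p = 8.84e-08) and by 0.21 ± 0.03 log2 in IP (15.7%; adjusted p = 1.87e-08), and IP exceeded input by 0.55 ± 0.02 log2 (adjusted p = 1.20e-32). Of the read pairs at Synm, 2.36% lay on the strand opposite to the gene, more than at the other 9 genes (each below 1%), and its calls held on counts of the gene's own strand.

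**Figure D3:**
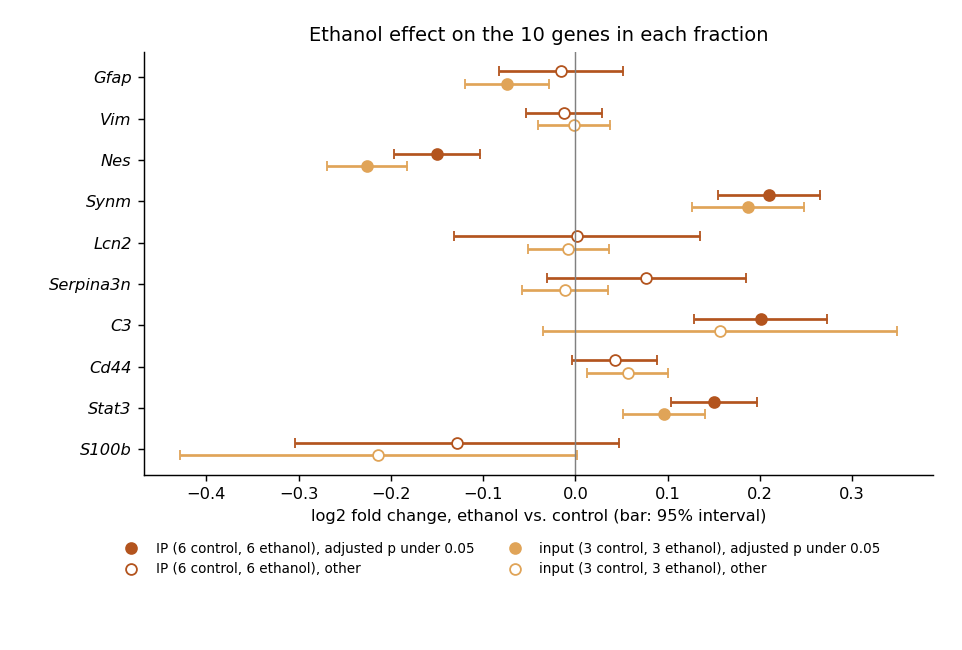
Log2 fold change of ethanol vs. control with its 95% interval in IP and input for the 10 genes. Filled points have an adjusted p under 0.05. Nes lies to the left of 0 and Synm and Stat3 to the right in both fractions, and the intervals of Vim and Lcn2 include 0 in both.

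Lcn2 (ENSMUSG00000026822; minus strand, chr2:32384633-32388252) encodes lipocalin 2, a secreted carrier of iron-binding siderophores that astrocytes release when reactive. C3 (ENSMUSG00000024164; minus strand, chr17:57203970-57228136) encodes the central protein of the complement cascade, and Serpina3n (ENSMUSG00000021091; plus strand, chr12:104406729-104414329) a secreted serine protease inhibitor. The promoters of these 3 genes and of Stat3 are shown because, among the 10 genes, C3, Serpina3n and Stat3 were those that varied most with Lcn2 between libraries of a group. All 10 genes had 1 entry in RefSeq's promoter table (GRCm38.p6). The sequences are the 250 bases before RefSeq's transcript start, 5' to 3' on the strand of the gene: chr2:32387740-32387989 (minus) for Lcn2, chr17:57228137-57228386 (minus) for C3, chr12:104406458-104406707 (plus) for Serpina3n and chr11:100939541-100939790 (minus) for Stat3. The Lcn2 window lies inside the GENCODE span of the gene given above, so it is not the sequence before the GENCODE start. Capitals mark matches to the motifs searched on both strands.
Lcn2: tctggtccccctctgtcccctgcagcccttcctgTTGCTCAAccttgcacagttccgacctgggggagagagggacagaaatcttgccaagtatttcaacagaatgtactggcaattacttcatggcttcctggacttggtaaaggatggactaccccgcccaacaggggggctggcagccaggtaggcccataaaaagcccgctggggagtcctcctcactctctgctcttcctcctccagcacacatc
C3: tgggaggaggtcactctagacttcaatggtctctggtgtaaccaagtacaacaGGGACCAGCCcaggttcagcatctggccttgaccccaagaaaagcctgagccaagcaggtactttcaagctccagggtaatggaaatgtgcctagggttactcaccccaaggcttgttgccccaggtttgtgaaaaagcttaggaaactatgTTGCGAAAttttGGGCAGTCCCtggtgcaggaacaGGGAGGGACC
Serpina3n: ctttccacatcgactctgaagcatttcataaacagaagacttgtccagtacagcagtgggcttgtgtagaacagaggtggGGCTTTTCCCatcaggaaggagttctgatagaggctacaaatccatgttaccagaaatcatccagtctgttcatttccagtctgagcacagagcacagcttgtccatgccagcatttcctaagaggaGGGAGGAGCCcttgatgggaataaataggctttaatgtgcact
Stat3: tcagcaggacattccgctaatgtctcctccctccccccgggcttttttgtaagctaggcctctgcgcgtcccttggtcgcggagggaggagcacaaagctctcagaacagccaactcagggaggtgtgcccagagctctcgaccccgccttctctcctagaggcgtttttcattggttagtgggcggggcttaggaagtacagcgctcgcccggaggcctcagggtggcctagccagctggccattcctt
The letters searched were TTCNNNGAA for STAT and TTGCNNAA for C/EBP. For AP-1 they were TGANTCA. For NF-kB they were GGGA and CC with any 4 bases between them. For the TATA box they were TATAAA. The C/EBP and NF-kB matches did not overlap at C3. The C/EBP letters were found before the starts of Lcn2 (1 match, 216 to 209 bases before) and C3 (1 match, 45 to 38 bases before), and in 9.56% of all 32851 promoters of the same length. The NF-kB letters were found 3 times at C3, 2 times at Serpina3n and not at Lcn2 or Stat3, and in 17.6% of all promoters. Of the 10 genes, 5 held the NF-kB letters, 2 the C/EBP letters and 1, Vim, the TATA box (12.4% of all promoters). None of the 10 windows held the STAT letters (7.02% of all promoters) or the AP-1 letters (6.75%), which says only that these letters are not in these windows.

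C3 rose with ethanol in IP. Its CPM was 6118 to 6617 in IP control (median 6289) and 6388 to 7591 in IP ethanol libraries (median 7383). Of the 6 ethanol libraries, 5 lay above all controls, and replicate 5, at 6388, lay within the control range. The difference was 0.20 ± 0.03 log2 or 14.9% (adjusted p = 2.47e-04), and leaving out replicate 5 it was 0.23 log2 (adjusted p = 2.82e-14). C3 in input was at 3333, 3422 and 3349 CPM in control and at 3898, 3420 and 3977 in ethanol libraries, and replicate 5 was again the low one. The change in input, 0.16 ± 0.07 log2 or 11.5%, did not pass (adjusted p = 0.295; 95% interval -2.41% to 27.4%). It passed without input ethanol replicate 5 (0.22 log2; adjusted p = 9.00e-20) and without input ethanol replicate 6 (0.11 log2; adjusted p = 4.74e-04). IP was above input by 0.92 ± 0.04 log2 or 1.90-fold (adjusted p = 5.46e-13), the widest gap of the 10 genes. Microglia also make C3: of 12 microglia markers, P2ry12 averaged below 0.1 CPM in each group, and the other 11 were lower in IP than in input (background 25.8%). Their summed level was 191 to 198 CPM in input control and 83.9 to 88.6 in IP control, opposite to C3. With ethanol it was 208 to 219 CPM in input and 94.8 to 101 in IP, above the controls of each fraction, and its part in the rise of C3 was not tested.

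Lcn2 did not pass the threshold for ethanol in either fraction. Its CPM was 2713, 2648 and 2716 in input control and 2800, 2483 and 2773 in input ethanol. In IP it ranged from 3843 to 4374 in control (median 4219) and from 3482 to 4521 in ethanol libraries (median 4195), so the ethanol range enclosed the control range. For the IP fraction the estimate was 0.00 ± 0.06 log2 (adjusted p = 0.992; 95% interval -8.73% to 9.79%) and for input -0.01 ± 0.02 log2 (adjusted p = 0.893; 95% interval -3.53% to 2.55%). Without input ethanol replicate 5 the input estimate was 0.05 log2 (adjusted p = 0.207), of opposite sign and outside that interval. The IP fraction was above input by 0.63 ± 0.05 log2 (adjusted p = 4.48e-09).

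Serpina3n was at 152.7, 149.4 and 158.9 CPM in input control and at 154.8, 150.2 and 153.9 in input ethanol. IP libraries spanned 238 to 265 in control (median 248) and 234 to 296 in ethanol libraries (median 262). IP exceeded input by 0.74 ± 0.04 log2 (adjusted p = 2.16e-11). The ethanol estimate was 0.08 ± 0.05 log2 in the IP fraction (adjusted p = 0.341). For input it was -0.01 ± 0.02 log2 (adjusted p = 0.858). In IP it passed with replicates 1 to 3 only (0.12 log2; adjusted p = 0.00522) and with the replicate number as a block (0.07 log2; adjusted p = 0.00633). It did not pass with replicates 4 to 6 only (0.02 log2; adjusted p = 0.812), and without IP ethanol replicate 3, the highest library, the estimate was 0.03 log2 (adjusted p = 0.541). Serpina3n lies in a cluster of near-identical copies, and since only read pairs mapped to 1 place were counted, its level is uncertain. Of the 11 cluster genes listed 6 were tested, none changed with ethanol in IP, and the other 5 (Serpina3f, Serpina3g, Serpina3h, Serpina3i and Serpina3m) were each below 2 CPM on average. Serpina3g rose with ethanol in input, from 0.210 ± 0.0889 to 0.471 ± 0.158 CPM (SD, n = 3 each; adjusted p = 0.0111), at levels under 1 CPM.

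Stat3 (ENSMUSG00000004040; minus strand, chr11:100885098-100939540) encodes the transcription factor through which cytokines of the interleukin 6 family act on astrocytes. It rose with ethanol in both fractions. Its CPM was 349, 348 and 358 in input control and 385, 371 and 375 in input ethanol. In IP it ranged from 503 to 536 in control (median 513) and from 543 to 585 in ethanol libraries (median 575), and groups overlapped in neither fraction. The rise was 0.15 ± 0.02 log2 or 10.98% in IP (adjusted p = 6.87e-07) and 0.10 ± 0.02 log2 or 6.87% in input (adjusted p = 4.27e-04). IP exceeded input by 0.58 ± 0.02 log2 (adjusted p = 2.35e-39).

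Cd44 (ENSMUSG00000005087; minus strand, chr2:102811141-102901665) encodes the cell surface receptor for hyaluronan. Its CPM was 475, 467 and 466 in input control and 496, 477 and 496 in input ethanol, all 3 ethanol libraries above the controls. The difference in input, 0.06 ± 0.02 log2 or 4.02%, did not pass (adjusted p = 0.0692), and it passed with DESeq2 (adjusted p = 0.0375), with scaling by total counts (adjusted p = 0.0262) and without input ethanol replicate 5 (adjusted p = 0.0224). In IP, Cd44 ranged from 531 to 553 CPM in control (median 543) and from 528 to 587 in ethanol libraries (median 556), with the control range inside the ethanol range, and the difference was 0.04 ± 0.02 log2 (adjusted p = 0.207). The gap between IP and input was 0.20 ± 0.02 log2 (adjusted p = 3.48e-15), the smallest difference of the 10 genes.

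S100b (ENSMUSG00000033208; plus strand, chr10:76253853-76261159) encodes a calcium-binding protein of mature astrocytes. Its CPM was 3.53, 3.42 and 4.52 in input control and 3.54, 3.04 and 3.32 in input ethanol. Its IP values ran from 2.40 to 2.98 in control (median 2.62) and from 1.93 to 2.75 in ethanol libraries (median 2.42). It was the gene that was lower in IP than in input, by -0.49 ± 0.07 log2 (adjusted p = 1.35e-08). The ethanol estimates, -0.13 ± 0.09 log2 (IP; adjusted p = 0.350) and -0.21 ± 0.11 log2 (input; adjusted p = 0.211), did not pass, and at this depth changes between -25.7% and 0.0965% in input lie within the 95% interval. Without input control replicate 6, the highest library, the input estimate was -0.08 log2 (adjusted p = 0.801), and without IP ethanol replicate 1, the lowest, the IP estimate was -0.07 log2 (adjusted p = 0.664).

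Within each dish sequenced in both fractions, the CPM in IP divided by that in input repeated closely. For C3 it was 1.84, 1.84 and 1.86 in control and 1.88, 1.87 and 1.87 in ethanol dishes 4, 5 and 6. For Gfap it was 1.72, 1.69 and 1.66 in control and 1.70, 1.64 and 1.67 in ethanol dishes. For Nes the ratios were 1.46, 1.41 and 1.44 in control and 1.52, 1.52 and 1.48 in ethanol dishes. S100b had the widest spread, 0.576 to 0.845 in control and 0.716 to 0.824 in ethanol dishes. Blocking on the dish, all 10 genes again differed between IP and input, with C3 at 0.89 ± 0.02 log2 and S100b at -0.45 ± 0.08 (adjusted p = 7.84e-08).

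**Figure D4:**
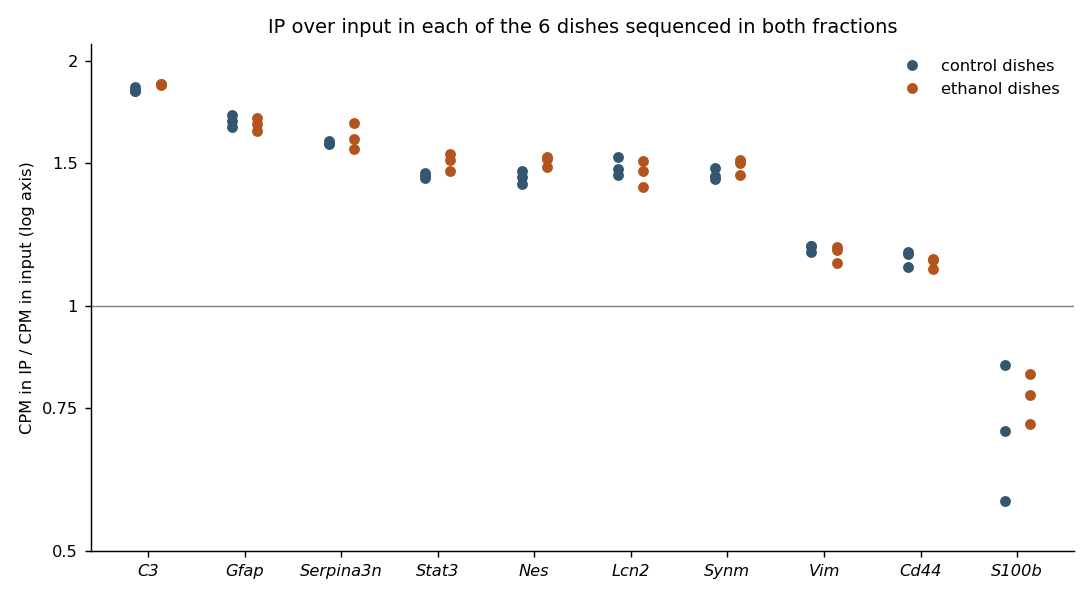
CPM in IP divided by CPM in input, on a log axis, for each of the 6 dishes with both libraries (3 control, 3 ethanol), genes ordered by the mean ratio. C3 lies at 1.84 to 1.88 in all dishes, Vim and Cd44 at 1.11 to 1.18, and S100b below 1.

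An interaction term over the 18 libraries asked whether ethanol acted differently on the IP and input fractions. None of the 10 genes passed with edgeR (background 0%), and none passed with DESeq2. With edgeR none had an unadjusted p under 0.05, beside 1459 of all 24495 genes tested. Estimates (ethanol effect in IP minus that in input) ran from -0.03 log2 for Cd44 to 0.08 log2 for Serpina3n, with 95% intervals of -0.10 to 0.05 and -0.09 to 0.24. Blocking on the dish (12 libraries, 6 dishes), 0 of 10 genes passed (background 0.416%). With this block 2 of 10 had an unadjusted p under 0.05, beside 1897 of all 24495 genes tested. The 2 were Nes at 0.09 ± 0.03 log2 (edgeR adjusted p = 0.292) and Stat3 at 0.08 ± 0.03 log2 (edgeR adjusted p = 0.483). With GC and length trends removed as well, both were at 0.02 log2. For C3 the interaction was 0.03 ± 0.07 log2 over the 18 libraries (95% interval -0.13 to 0.19), so the ethanol effect on C3 was called in IP and not in input without a shown difference between them.

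Deviations of log2 CPM from the 4 group means were correlated over the 18 libraries, as a description, since input and IP libraries of a dish share cells and all genes of a library share its scaling. Lcn2 varied with C3 (r = 0.83), Serpina3n (r = 0.76) and Stat3 (r = 0.71), C3 with Stat3 (r = 0.70) and Serpina3n (r = 0.62), and Serpina3n with Stat3 (r = 0.56). Cd44 was not apart from these 4 genes, with r = 0.60 to C3, 0.54 to Stat3 and 0.47 to Lcn2, and Gfap had r = 0.53 to Serpina3n. Ethanol dish 5 had the lowest CPM of its group for all 4 in both of its libraries: relative to the mean of the other 5 IP libraries, Lcn2 was at -18.8%, C3 at -13.6%, Serpina3n at -12.2% and Stat3 at -5.84%, and relative to the other 2 input libraries Lcn2 was at -10.9%, C3 at -13.2%, Serpina3n at -2.69% and Stat3 at -2.45%. The last 2 are small, since Serpina3n was at -4.12% in input control replicate 5. Other genes were low there too: Gfap was at -8.41% in that IP library, and 7 of the 10 genes had their lowest CPM in that input library. Lcn2 and Serpina3n had their lowest CPM in replicate 5 in each of the 4 groups. Leaving out that IP library, the ethanol estimate of Lcn2 was 0.05 log2 (adjusted p = 0.420) and that of Stat3 0.16 log2 (adjusted p = 2.07e-08). Gfap and Vim varied together less (r = 0.47), Gfap varied against Synm (r = -0.60) and Vim against Cd44 (r = -0.66). Among 11065 genes compared, each averaging 5 CPM or more, those most alike Gfap were Rexo4, Pnmal2, Idh2, Eif2b5 and Lin37 (r = 0.85 to 0.88), and those most alike Vim were Myo1c, Midn, Zfp423, Pigb and Phldb1 (r = 0.84 to 0.87).

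**Figure D5:**
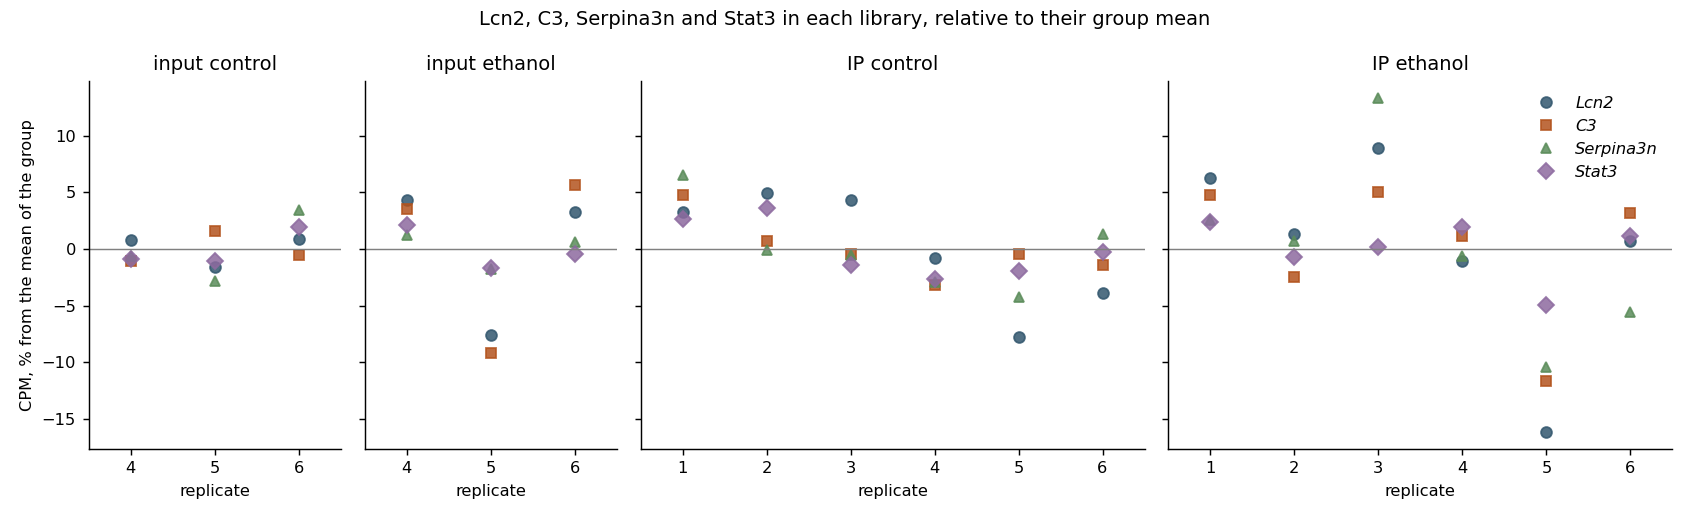
CPM of Lcn2, C3, Serpina3n and Stat3 in each library as percent from the mean of its group, by replicate number. Ethanol replicate 5 lies below 0 for all 4 genes in input and in IP.

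The wider intermediate filament family, with lamins, moved in both directions. Of 15 genes, 2 rose and 4 fell with ethanol in IP, and the same numbers in input, with a median of -0.04 log2 in IP. Of all genes 11.9% rose and 9.48% fell in IP, and 7.21% rose and 7.78% fell in input. Between fractions 25.2% were higher and 25.8% lower in IP. Besides Synm, Ina (internexin alpha, a neuronal filament protein) rose from 1.74 ± 0.200 to 2.38 ± 0.253 CPM in IP (SD, n = 6 each; 0.46 ± 0.10 log2, adjusted p = 1.78e-04). Besides Nes, the nuclear lamins fell: Lmnb1 from 15.2 ± 0.862 to 12.5 ± 1.27 CPM (-0.28 log2, adjusted p = 1.16e-04), Lmna from 279 ± 8.89 to 250.1 ± 8.70 CPM (-0.15 log2, adjusted p = 4.28e-06) and Lmnb2 by -0.11 log2 (adjusted p = 0.0407). In IP vs. input 9 of 15 were higher and 3 lower, the last being Prph, Krt8 and Krt18, each at about 1 CPM or less. Of 8 tested cytolinkers and filament regulators, 1 rose and 2 fell with ethanol in IP and 0 and 2 in input: the small heat shock proteins Cryab, which binds GFAP filaments, at -0.14 log2 (adjusted p = 1.65e-05), and Hspb1, at -0.17 log2 (adjusted p = 2.36e-04), fell, and Evpl rose. Macf1, a crosslinker of actin and microtubules and the most abundant of them by CPM, did not pass in either fraction. Eppk1 had too few reads to be tested.

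The panels that describe reactive astrocytes in the field were also mixed. Of all genes 11.9% rose and 9.48% fell with ethanol in IP, and 7.21% rose and 7.78% fell in input. Of genes averaging 5 CPM or more, 40.2% were called in IP and 29.8% in input. The panel counts were not tested against these shares. Of the 13 pan-reactive genes, 3 rose and 3 fell in IP (median 0.04 log2), and 2 rose and 4 fell in input. Those that rose in IP were Osmr, the oncostatin M receptor (207.6 ± 6.78 to 253 ± 9.91 CPM; 0.29 ± 0.03 log2, adjusted p = 2.82e-14), Cp, ceruloplasmin (0.14 log2) and S1pr3 (0.09 log2). Those that fell were Cxcl10, a chemokine induced by interferon (147.4 ± 5.50 to 114 ± 9.92 CPM; -0.36 ± 0.05 log2, adjusted p = 2.15e-04), Steap4 (-0.20 log2) and Hspb1. Of 12 tested genes of the A1 panel, 5 rose and 1 fell in IP (median 0.05 log2) and 3 rose and 1 fell in input. Besides C3, the risers in IP included the class I histocompatibility genes H2-T23 (172 ± 8.68 to 205 ± 12.4 CPM; 0.25 ± 0.04 log2, adjusted p = 1.78e-04) and H2-D1 (0.18 log2, adjusted p = 0.00637). Srgn, the proteoglycan of secretory granules, was at 0.35 log2 (adjusted p = 0.00882) and Ggta1 at 0.08 log2 (adjusted p = 0.0142), while Fkbp5 fell. Srgn, which microglia also express, was at -1.38 log2 in IP vs. input. Of 13 A2 genes, 2 rose and 2 fell in IP (median -0.02 log2) and 3 rose and 3 fell in input. In IP, Stat3 and Cd109 (0.13 log2) rose, and S100a10 (-0.22 log2, adjusted p = 6.43e-09) and Clcf1 (-0.13 log2, adjusted p = 3.81e-04) fell.

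Of 26 genes of the JAK and STAT3 pathway, 9 rose and 1 fell with ethanol in IP, and 8 rose and 1 fell in input, with a median of 0.04 log2 in IP and 0.01 in input. The 10 of 26 called in IP lie between the 21.4% of all genes and the 40.2% of genes averaging 5 CPM or more, close to the latter, and the number that rose ran from 7 to 10 over 22 alternatives. The receptors that rose in IP were Osmr, Lifr, which binds leukaemia inhibitory factor (0.21 ± 0.04 log2, adjusted p = 9.72e-05), Il6ra (0.16 log2, adjusted p = 4.29e-04) and Il6st, the shared signalling subunit gp130 (523 ± 11.8 to 561 ± 8.01 CPM; 0.11 ± 0.02 log2, adjusted p = 1.20e-04). The kinases Tyk2 (0.18 log2, adjusted p = 7.59e-07) and Jak2 (0.14 log2, adjusted p = 6.54e-05) rose as well, while Jak1 did not pass (0.04 log2, adjusted p = 0.217). Clcf1, which encodes a cytokine of this family, was the gene that fell, as given above. Socs3, the feedback inhibitor that STAT3 induces, did not pass (0.05 log2, adjusted p = 0.375), and Socs1 rose in IP (0.22 log2, adjusted p = 0.0297). In IP vs. input 12 of 26 were higher (background 25.2%) and 8 lower (background 25.8%).

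In the S100 family, of 13 tested genes, with the S100B receptor Ager, 0 rose and 6 fell with ethanol in IP and 0 and 5 in input, with medians of -0.18 and -0.14 log2. Of all genes 9.48% fell in IP and 7.78% in input. Of genes averaging 5 CPM or more, 40.2% were called in either direction in IP and 29.8% in input. The 6 that fell in IP were the most abundant of this list, and those not called in IP averaged below 5 CPM in each group. Over the alternatives 4 to 6 of these 13 fell in IP and 3 to 5 in input. S100a16 fell by 0.23 ± 0.03 on the log2 scale in IP (adjusted p = 4.53e-10) and from 94.6 ± 1.41 to 84.9 ± 0.947 CPM in input (SD, n = 3 each; adjusted p = 1.43e-07), S100a10 from 112 ± 4.75 to 96.1 ± 3.76 CPM in IP, and S100a6 by -0.18 log2 (adjusted p = 0.00822). S100a11 fell in both fractions (-0.17 log2 in IP, adjusted p = 4.54e-07; -0.23 in input, adjusted p = 1.10e-21). S100a13 (-0.17 log2) and S100a1 (-0.16 log2) completed the 6 in IP. In complement, 3 of 18 genes rose (background 11.9%) and 1 fell (background 9.48%) in IP, with a median of 0.08 log2. In input 1 rose (background 7.21%) and 1 fell (background 7.78%), and the number that rose there ran from 0 to 6 over 14 alternatives. Besides C3 those in IP were C4b (0.11 log2, adjusted p = 0.00187), Clu, the inhibitor clusterin (1987 ± 29.3 to 2168 ± 150 CPM; 0.13 log2, adjusted p = 0.0103), and Cd59a (-0.10 log2, adjusted p = 0.0235). Between fractions complement divided: 7 were higher in IP (background 25.2%), C3 and Clu (0.77 log2) among them. The other 10 called were lower in IP (background 25.8%), such as C1qa (-2.48 log2) and the C3a receptor C3ar1 (-2.56 log2), which microglia express.

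Of 12 genes for Cd44 ligands, hyaluronan enzymes and linkers, 2 rose and 2 fell with ethanol in IP (median 0.05 log2) and 1 and 4 in input. Of all genes 11.9% rose and 9.48% fell in IP, and 7.21% rose and 7.78% fell in input. Spp1, osteopontin, a Cd44 ligand, rose from 76.6 ± 3.45 to 87.1 ± 4.52 CPM in IP (0.19 ± 0.03 log2, adjusted p = 4.75e-06), and Hyal1, a hyaluronidase, by 0.13 log2 (adjusted p = 0.00161). Hmmr, a hyaluronan receptor of the mitotic spindle, fell (-0.37 log2, adjusted p = 6.00e-06), as did Msn, the linker moesin (-0.10 log2, adjusted p = 6.05e-04). Of 5 genes listed for Lcn2 with its receptors and partners, the receptor gene Slc22a17 rose from 88.8 ± 2.37 to 104.6 ± 6.69 CPM in IP (0.24 ± 0.03 log2, adjusted p = 7.61e-08), while the receptor Lrp2 fell (-0.23 log2, adjusted p = 0.0175; median of the list -0.07 log2). Mmp9, whose protein forms a complex with lipocalin 2, fell in input, from 14.5 ± 0.933 to 10.1 ± 1.35 CPM (-0.53 ± 0.06 log2, adjusted p = 2.43e-15), and did not pass in IP, where it was at 4.25 ± 0.398 and 4.03 ± 0.424 CPM.

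Markers of other cells were present at levels that differed between groups. Beside the counts below, 11.9% of all genes rose and 9.48% fell with ethanol in IP, and 7.21% rose and 7.78% fell in input. Of genes averaging 5 CPM or more, 40.2% were called in IP and 29.8% in input. Ethanol raised 5 and lowered 1 of 12 astrocyte markers in IP (5 and 3 in input), and raised 3 of 12 microglia markers in IP and 4 in input with none lower. Of 12 fibroblast and meningeal markers 1 rose in IP, and their sum was 1959 to 2011 CPM in IP control and 1859 to 2080 in IP ethanol. Of 11 endothelial and mural markers 1 rose and 2 fell in IP, and their sum, mostly the smooth muscle actin Acta2, was 1652 to 1786 CPM in IP control and 1080 to 1278 in IP ethanol. Of 12 oligodendrocyte lineage markers 2 rose and 1 fell in IP, of 11 neuron markers 0 and 1, and of 8 ependymal markers 1 and 2. Acta2 fell by 0.56 ± 0.04 on the log2 scale in IP (adjusted p = 7.24e-08), and it was higher in IP than in input (0.43 log2, adjusted p = 1.29e-09). The list did not move as one: Kdr also fell in IP (-0.40 log2, adjusted p = 4.71e-06) and Cspg4 rose (0.29 log2, adjusted p = 1.81e-08). Pdgfrb, at 94.5 ± 2.53 CPM in IP control, did not pass (-0.02 log2, adjusted p = 0.649). Mural cells also make vimentin and nestin, and the part of mural or other non-astrocyte cells in the values of Vim and Nes was not tested.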

How the data were processed

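RNA was measured in 18 libraries, 12 IP and 6 input, made with a stranded total RNA kit after rRNA depletion and sequenced as paired reads. Trimming (Trimmomatic) and alignment to GRCm38 (STAR) were done by the authors, who deposited raw counts of read pairs per gene, unstranded and not normalized. No replicates were pooled by the authors in the deposited counts. STAR counted pairs mapped to 1 place, so pairs mapped to several places (2.95% to 4.77%) and ambiguous pairs (5.37% to 5.66%) were left out. The single-library files equal the deposited table (0 differences) and gave the counts by strand, and 26 gene symbols turned into dates were replaced.

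Genes with at least 10 read pairs over all libraries were kept. CPM, folds and tests were computed with edgeR 4.0.16 (TMM, estimateDisp, robust glmQLFit, glmQLFTest) in R 4.3.3, with Benjamini-Hochberg adjustment and a threshold of 0.05. The SE is the absolute log2 fold change divided by the square root of F, and DESeq2 1.42.0 was run beside it. The steps were tested on simulated data. Levels per kb used GENCODE M21 exons, log2 CPM a prior count of 2. Libraries held 74239854 to 132810705 counted read pairs, and S100b rested on the fewest. Dishes are cultures of pooled pups, so the replicates are dishes and not animals. The p-values rest on dispersions estimated partly across genes, so they do not measure the spread of 1 gene between dishes alone. For Lcn2 in input the SE was 0.02 log2, while the ethanol libraries ran from 2483 to 2800 CPM. IP vs. input over the 18 libraries treated both libraries of a dish as independent, and the dish block is the alternative to it.

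Input and IP libraries of a treatment with the same number come from the same dish per the labels, so the dish is a true block. Deviations of same-dish libraries correlated at 0.034 to 0.206, and those of input and IP libraries from different dishes of a treatment at -0.127 to 0.0585. The 10 genes and the gene lists were chosen with earlier results of these data known, and the lists share genes. Genes named from a list are those past the threshold with the largest change, up to 4 in each direction, the one of highest CPM, and the 5 most alike Gfap and Vim. Il6ra, Jak1, Jak2, Tyk2, Socs3, S100a1, S100a13, the Serpina3 copies, Ntsr2, P2ry12 and Pdgfrb are outside this rule and were chosen after their values were seen. Alternatives were DESeq2, other scaling, filters and counts by strand, removal of GC and length trends (a spline with 4 degrees of freedom), blocks, subsets of replicates and leaving out each library.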

Additional observations from a re-analysis of the deposited data

Results flagged for a closer look

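Of 20 groups of 6 IP libraries (10 genes, control and ethanol), 2 held a library whose gap to the nearest of the others exceeded Dixon's limit of 0.625 of the range, and chance gives about 1 in 20. Both concern Vim. IP control replicate 6 was high, at 8817 CPM (ratio 0.780), and IP ethanol replicate 1 was low, at 8172 CPM (ratio 0.673). In the same library, IP ethanol replicate 1, Cd44 (587 CPM), Synm (98.4 CPM) and Stat3 (585 CPM) had the highest and S100b (1.93 CPM) the lowest value of their group.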

How the results depend on the processing

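Of the estimates for the 10 genes in the 4 comparisons, none reversed a call under any alternative, and 888 stayed on their side of the threshold, 8 passed it and 4 lost it. The 4 losses are Gfap in input without 1 library each, and the gains are those of Gfap, Serpina3n, C3 and Cd44 given in the report. The calls of Nes, Synm, C3 and Stat3 in IP, of Nes, Synm and Stat3 in input, and of all 10 genes in IP vs. input held under every alternative run. Over all genes, ethanol changed 5233 in IP, and 2995 with IP replicates 1 to 3 only, where fewer libraries were used. Genes whose ethanol effect differed between fractions numbered 0 over 18 libraries (1459 with an unadjusted p under 0.05), 2 with DESeq2, 13 in the 12 libraries of dishes with both fractions, 102 with these dishes as a block, 44 with the block and GC and length trends removed, and 0 to 1 with each library left out (1 without IP ethanol replicate 3). The cause of these differences was not tested.

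The labels do not say whether control and ethanol dishes of the same number share a culture batch, and they were not treated as paired. Same-numbered libraries correlated at -0.149 to 0.399 in IP and 0.0368 to 0.0736 in input. Control and ethanol libraries of different numbers correlated at -0.374 to 0.364 in IP and -0.116 to 0.0598 in input. With the replicate number as a block, ethanol changed 5782 genes and 5 of the 10 in IP (Serpina3n at 0.07 log2, adjusted p = 0.00633, was added) and 3829 genes and the same 4 of the 10 in input. With the dish as a block, 11659 genes and all 10 differed between IP and input. The block changed no other call among the 10 genes.

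Of the 10 genes, S100b rests on the fewest read pairs, 176 to 399 per library. Fold changes are relative to the scaling of each library, and pooled pups, 1 tag line and 3 input dishes per group limit how far they extend.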
